A study of Mus musculus with 564 samples.

Results

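Bone marrow-derived macrophages (BMDMs) were compared after 30 min of lipopolysaccharide (LPS) and without stimulus (UT), to find the promoters and enhancers whose H3K27ac changes first. The comparison uses 4 of the 564 ChIP-seq libraries of the series, chosen by their labels as the 2 DMSO UT libraries and the 2 DMSO libraries taken at 30 min of LPS, and no measured value entered the choice. The cells were differentiated from bone marrow of wild type male C57/BL6 mice, 6 to 8 weeks old, and all 4 libraries come from cells that had received vehicle (DMSO) for 1 h. The LPS pair was then given LPS at 10 ng/mL for 30 min and the other was left without stimulus. The UT libraries are titled 0 h while their treatment label gives 4 h without stimulus, so the moment at which they were collected is not settled by the labels. The sources used here do not say whether the libraries numbered 1 and 2 come from separate cultures. The p-values below therefore measure only a spread between libraries, which may be technical. For LPS against UT, that spread was estimated with the later libraries of the LPS course and with variances shared across CREs. BMDMs are cultured primary cells, and the data are sums over a cell population in which fewer responding cells and a smaller response per cell cannot be told apart.

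H3K27ac, histone H3 acetylated at lysine 27, is deposited by the acetyltransferases p300 and CBP and marks active promoters and enhancers. LPS is sensed by TLR4 with its partners MD-2 and CD14. The adaptors MyD88 and TRIF then relay the signal to the IkB kinases, the MAP kinases and TBK1, and through them to NF-kB, AP-1 and IRF3. In resting macrophages the enhancers are held open by PU.1 together with C/EBP and AP-1 family factors, and NF-kB enters the nucleus within minutes of stimulation. Immediate early genes, which need no new protein to be induced, are transcribed first, inflammatory cytokines and chemokines follow, and interferon-stimulated genes come later through secreted interferon beta.

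Each value below is a normalized read count, the H3K27ac reads over 1 candidate cis-regulatory element (CRE) after scaling by the authors, rounded to whole numbers. The table holds 59190 CREs, defined from accessible chromatin, with a median width of 1652 bp. A promoter CRE here is one that overlaps a protein-coding transcription start (11030 CREs), and all others count as distal (48160). Distal CREs carry the name of the nearest protein-coding gene, which need not be the gene they act on. Widths differ between CREs and values are not divided by width, so levels are compared within a CRE and not between genes. Coordinates are in the mouse build mm10.

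The sequences below are printed to show motif matches in elements described in the results that follow. They were chosen after their values and matches were seen, and they are not the strongest changes in order. Of the other leading distal CREs, the gains near A730009L09Rik and Slx4ip and the losses near Csad, Man1c1, Nlrp1b and Rhobtb1 held none of the motifs searched in their central 200 bases. The first set are the central 200 bases of distal CREs that gained the mark. Capitals mark matches to the kappaB motif, the binding sequence of NF-kB, to the AP-1 motif TGANTCA and to the PU.1 motif GAGGAAGT, searched on both strands, and none of these motifs contains another.
distal CRE near Jak2, chr19:29176553-29176752, plus strand: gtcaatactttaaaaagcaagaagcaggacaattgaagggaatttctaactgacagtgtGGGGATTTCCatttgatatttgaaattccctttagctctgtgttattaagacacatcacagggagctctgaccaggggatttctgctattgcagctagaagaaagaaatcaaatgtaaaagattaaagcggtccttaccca
distal CRE near Il1a, chr2:129330690-129330889, plus strand: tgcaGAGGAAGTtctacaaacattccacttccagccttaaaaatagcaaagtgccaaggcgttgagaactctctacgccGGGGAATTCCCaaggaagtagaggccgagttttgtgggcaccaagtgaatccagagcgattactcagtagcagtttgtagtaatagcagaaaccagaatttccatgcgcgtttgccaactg
distal CRE near Tnfaip3, chr10:19078026-19078225, plus strand: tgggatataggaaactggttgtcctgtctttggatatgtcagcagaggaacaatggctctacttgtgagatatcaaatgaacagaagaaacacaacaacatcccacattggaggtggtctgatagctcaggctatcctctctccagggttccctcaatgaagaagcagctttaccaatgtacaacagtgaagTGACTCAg
The element near Jak2 holds 1 kappaB match, the element near Il1a holds 2 overlapping kappaB matches beside a PU.1 match, and the element near Tnfaip3 holds an AP-1 match close to the edge of the window. The second set are distal CREs that lost the mark, with the PU.1 motif of the Rere element and the C/EBP motif TTGCNNAA of the Zfyve28 element in capitals.
distal CRE near Rere, chr4:150566247-150566446, plus strand: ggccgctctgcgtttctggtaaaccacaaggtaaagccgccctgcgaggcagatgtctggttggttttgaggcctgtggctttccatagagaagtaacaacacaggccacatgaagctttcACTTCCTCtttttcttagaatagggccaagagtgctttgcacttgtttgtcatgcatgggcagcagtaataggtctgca
distal CRE near Zfyve28, chr5:34238565-34238764, plus strand: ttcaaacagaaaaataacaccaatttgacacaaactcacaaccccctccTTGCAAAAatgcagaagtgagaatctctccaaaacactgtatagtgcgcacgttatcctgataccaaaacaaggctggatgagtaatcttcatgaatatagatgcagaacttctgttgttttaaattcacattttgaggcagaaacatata
The third set are promoter windows from RefSeq (GRCm38.p6, 250 bases before to 50 after the start, read in the direction of the gene) that lie inside promoter CREs described below. Capitals mark the kappaB, AP-1 and C/EBP motifs, the interferon-stimulated response element (ISRE, searched as 2 GAAA words separated by 2 bases), the cAMP response element TGACGTCA, the EGR motif GCGNGGGCG and the E-box CACGTG.
Cxcl10 promoter, chr5:92348840-92349139, minus strand: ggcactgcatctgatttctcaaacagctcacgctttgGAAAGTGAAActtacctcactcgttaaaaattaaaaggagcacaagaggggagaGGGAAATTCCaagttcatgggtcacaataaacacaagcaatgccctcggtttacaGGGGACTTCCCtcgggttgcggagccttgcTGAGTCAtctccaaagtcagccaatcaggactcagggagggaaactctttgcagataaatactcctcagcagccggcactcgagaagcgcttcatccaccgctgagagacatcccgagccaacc
Cxcl1 promoter, chr5:90890995-90891294, plus strand: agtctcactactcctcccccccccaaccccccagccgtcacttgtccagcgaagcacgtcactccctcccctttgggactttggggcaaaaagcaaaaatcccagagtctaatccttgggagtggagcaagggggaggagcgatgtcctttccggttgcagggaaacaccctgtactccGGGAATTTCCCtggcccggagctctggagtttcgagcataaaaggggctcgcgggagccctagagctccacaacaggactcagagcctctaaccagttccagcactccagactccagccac
Ifnb1 promoter, chr4:88522745-88523044, minus strand: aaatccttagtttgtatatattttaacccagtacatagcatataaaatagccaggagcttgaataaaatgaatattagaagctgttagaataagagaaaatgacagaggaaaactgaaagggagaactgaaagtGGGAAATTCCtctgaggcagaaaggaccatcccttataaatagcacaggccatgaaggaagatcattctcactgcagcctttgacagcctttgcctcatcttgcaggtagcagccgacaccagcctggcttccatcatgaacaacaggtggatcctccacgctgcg
Tnip1 promoter, chr11:54962891-54963190, minus strand: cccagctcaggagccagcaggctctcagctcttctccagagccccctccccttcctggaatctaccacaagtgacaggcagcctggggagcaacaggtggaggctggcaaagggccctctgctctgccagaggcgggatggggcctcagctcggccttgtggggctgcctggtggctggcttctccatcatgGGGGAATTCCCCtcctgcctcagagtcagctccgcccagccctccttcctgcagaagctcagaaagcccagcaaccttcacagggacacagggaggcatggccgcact
Maff promoter, chr15:79347270-79347569, plus strand: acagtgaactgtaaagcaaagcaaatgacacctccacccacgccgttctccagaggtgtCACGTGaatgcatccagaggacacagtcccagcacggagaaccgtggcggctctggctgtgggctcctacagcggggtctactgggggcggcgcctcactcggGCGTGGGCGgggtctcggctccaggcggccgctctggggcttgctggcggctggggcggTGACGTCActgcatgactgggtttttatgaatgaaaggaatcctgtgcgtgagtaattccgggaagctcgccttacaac
Trem2 promoter, chr17:48346151-48346450, plus strand: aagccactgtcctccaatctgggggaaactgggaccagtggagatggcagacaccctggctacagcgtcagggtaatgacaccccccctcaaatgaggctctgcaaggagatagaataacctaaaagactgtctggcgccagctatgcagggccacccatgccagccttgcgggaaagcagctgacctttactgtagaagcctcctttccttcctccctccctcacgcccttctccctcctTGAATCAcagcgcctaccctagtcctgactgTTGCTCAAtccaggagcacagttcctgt
Of all 32851 RefSeq promoter windows of this length, 8.46% held the kappaB motif, 7.81% AP-1, 3.44% ISRE, 1.79% the cAMP response element, 10.8% C/EBP, 5.55% EGR, 7.15% the E-box and 3.20% PU.1. Among the windows shown, Cxcl10 holds 3 kappaB matches, of which 2 overlap, with 1 ISRE and 1 AP-1 match, and Ifnb1, Cxcl1 and Tnip1 hold kappaB. The window of Maff holds the cAMP response element, and that of Trem2, which lost H3K27ac, holds AP-1 and C/EBP. Promoters named below but not printed differ. The windows of Traf1, Il1b and Il12b, which gained the mark, held none of the motifs searched. Those of Dusp2 and Dusp8, also gains, held no kappaB. Among promoters that lost the mark, the window of Padi2 and a window of Ifit2 held kappaB. A match describes the letters of a window and is not evidence that a factor binds there.

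The 4 libraries had scaled totals of 6026286 and 5923684 for UT and 5954258 and 6482021 for 30 min of LPS, which do not give the sequencing depth. The values lie on an evenly spaced grid whose step is the value of 1 read after scaling, and that step was 0.961 and 1.02 in the UT libraries and 2.54 and 1.50 in the LPS libraries. The corresponding estimates of reads in CREs are 6269410 and 5789770 for UT and 2345340 and 4322590 for LPS, so a low value rests on fewer reads in the LPS libraries. Steps below 1 were recovered in 9 of 15 simulated libraries, and the UT estimates are the less certain ones. The 2 UT libraries correlated across CREs with r = 0.982 on the log2 scale and the 2 LPS libraries with r = 0.959, where CREs are not independent replicates. All 10 macrophage markers examined had a promoter CRE, with UT values from 218 at Mertk to 1794 at Csf1r. Of 80 markers of 8 other cell types, 13 had a promoter CRE that could be tested, none of them a T cell or B cell marker. The summed value of those 13 was 1658 and 1707 in UT and 944 and 1026 after LPS. Most of that change was at Pecam1, whose CRE also covers a start of Milr1, and at Pf4, both called lower. Camp, Pdgfrb and Itgax were called higher from UT values of at most 53. These are 3 genes higher and 2 lower of the 13, where 6.48% of all tested promoter CREs were called higher and 8.97% lower. The part of other cell types in the results was not tested.

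Within 30 min, H3K27ac rose at many distal elements that were weak in UT cells and fell at many that were strong, and the share of promoters that gained the mark was smaller. Of 50697 CREs tested, 8255 were called higher after LPS, which is 16.3% of those tested, and 6659 were called lower, which is 13.1%. Calls needed an adjusted p (Benjamini-Hochberg) under 0.01 and a log2 difference beyond 1 in either direction in limma, a linear model with moderated variances, on log2(value + 5). In 8252 of the gains and 6657 of the losses the 2 LPS libraries lay wholly outside the range of the 2 UT libraries. With 2 libraries a group the call nearly fixes this separation, so it adds no support. CREs that were not called can be separated too, as the promoters of Fos and Jun were. Over all tested CREs the median log2 difference was 0.05. The number of gains depended on the pseudocount, and with 20 in place of 5, which shrinks differences at weak CREs, 5415 CREs were called higher.

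**Figure D1:**
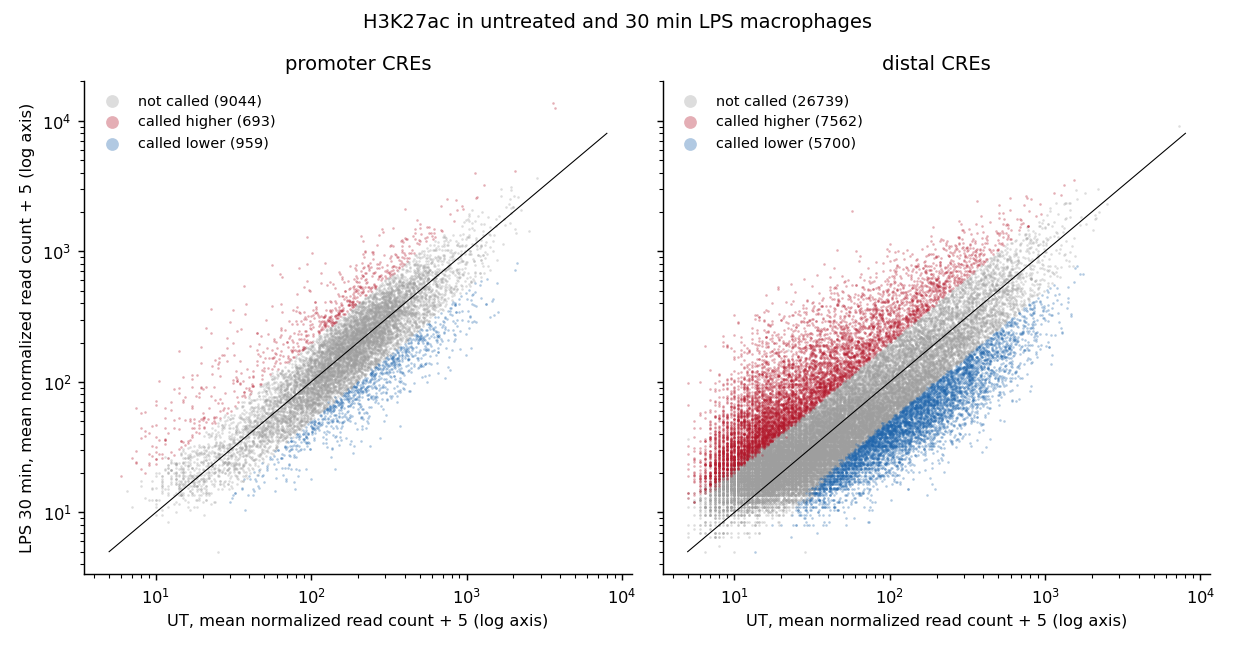
Mean normalized read count + 5 of the 2 UT libraries (horizontal, log axis) against that of the 2 LPS 30 min libraries (vertical, log axis), 1 point per tested CRE, promoters on the left and distal CREs on the right. The line marks equal values. Distal gains (7562, red) spread from the lowest UT values upward, distal losses (5700, blue) sit at middle and high UT values, and promoters hold 693 gains and 959 losses.

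Promoters gained the mark at 693 CREs (6.48% of the 10696 tested) and lost it at 959 (8.97%). Distal CREs gained it at 7562 (18.9% of the 40001 tested) and lost it at 5700 (14.2%). The smaller share of losses at promoters depended on the limit set on the log2 difference. With a limit of 0.5 in place of 1, promoters had 1800 gains (16.8%) and 2071 losses (19.4%), and distal CREs had 9153 gains (22.9%) and 7441 losses (18.6%). At the limit of 1, the share of gains increased with distance from the nearest coding start, from 16.1% of distal CREs within 10 kb to 18.2% between 10 and 50 kb and 22.8% beyond 50 kb. The share of losses was 14.9%, 14.6% and 13.1% in the same classes. Intergenic distal CREs were called higher in 21.3% and intronic ones in 17.5%. The changes were larger at distal elements, with a median log2 difference of 1.62 among distal gains and 1.38 among promoter gains, and 458 distal gains exceeded a log2 difference of 3 against 19 promoter gains.

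The starting level of a CRE was taken from libraries that the comparison did not use, the 73 UT libraries of cells treated with kinase inhibitors, and the tested CREs of each class were divided by it into 5 bins of equal size. In the lowest bin of distal CREs, 29.95% were called higher and 0.24% lower. In the highest bin, 10.3% were called higher and 34.0% lower. The shares moved in steps through the 3 bins between, with gains of 22.7%, 17.4% and 14.2% and losses of 2.60%, 10.1% and 24.3%. At promoters the same order was shallower, with gains of 10.98% in the lowest bin and 4.96% in the highest and losses of 3.83% and 16.0%. On the scale used a CRE close to 0 has little room to fall. CREs were tested only with a mean of at least 10 over the 10 DMSO libraries of the LPS course, most of them after LPS. A CRE weak in UT could therefore be tested because it rose, and those that stayed weak were more often left out. The share of gains in the lowest bins may be raised by this filter. Width hardly differed between gains and losses at distal CREs, with medians of 1677 bp and 1674 bp. Called promoter CREs were wider, with medians of 2245 bp for gains and 2313 bp for losses.

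**Figure D2:**
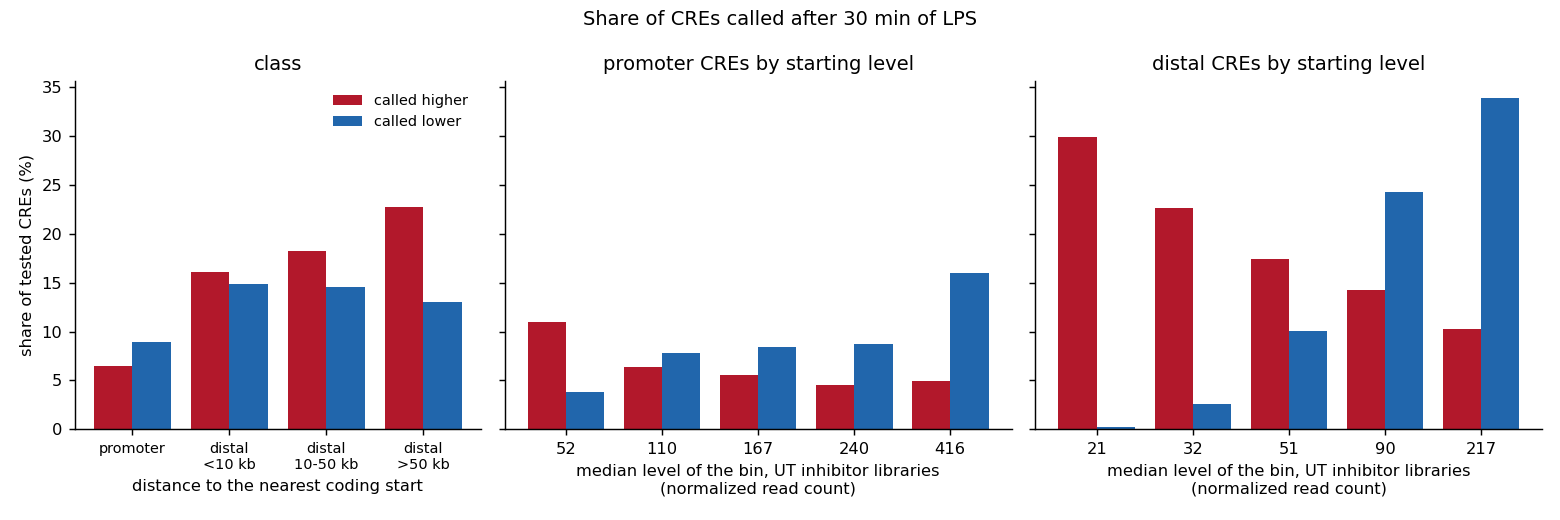
Bars give the percent called higher (red) or lower (blue) among tested CREs after 30 min of LPS, by class and distance to the nearest coding start (left), and by bin of the starting level at promoters (middle) and distal CREs (right), where the axis gives the median normalized read count of the bin in the 73 UT inhibitor libraries. Distal gains fall from 29.95% to 10.3% from the lowest to the highest bin and losses climb from 0.24% to 34.0%.

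The largest promoter gains were at genes with varied functions, among them the inflammatory genes Traf1, Ccl5 and Il1a. Traf1 encodes an adaptor of the TNF receptor family, and its promoter CRE at chr2:34956206-34959623, which covers the start and part of the gene, rose from 46 and 56 in UT to 706 and 847 after LPS, a log2 difference of 3.80 ± 0.12 (SE, n = 2 libraries a group, adjusted p = 6.5e-23). The chemokine Ccl5, which attracts T cells and monocytes, rose at chr11:83529723-83537515 from 98 and 80 to 1163 and 1381, or 3.77 ± 0.09. For Gem, a small GTP-binding protein, the values were 18 and 14 in UT and 223 and 286 after LPS at chr4:11702643-11706212, a difference of 3.62 ± 0.20. At each of these 3 promoters both LPS libraries were far above both UT libraries. Groups that do not overlap were a condition for naming the largest rises and falls, here and below. The promoter of Il1a, which encodes interleukin 1 alpha, went from 24 and 29 to 317 and 378 (3.48 ± 0.15, chr2:129309144-129312657). Tmem200b, a transmembrane protein gene, went from 10 and 8 to 150 and 184 (3.62 ± 0.22, chr4:131920085-131922460). The fibrillar collagen gene Col27a1, whose RefSeq promoter window holds a kappaB match 183 bases before the start, went from 22 and 13 to 241 and 222 (3.42 ± 0.21, chr4:63214514-63218405). In these 3 as well, the lowest LPS value stood far above the highest UT value.

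The largest differences of all were at distal elements. The first was an intergenic CRE at chr16:84602912-84609422, whose nearest protein-coding gene is A730009L09Rik and which lies 97 kb from Mir155hg, the host gene of the inflammatory microRNA miR-155. Its values were 57 and 47 in UT and 1978 and 2066 after LPS, a log2 difference of 5.16 ± 0.10 (adjusted p = 8e-30). Next came an intergenic CRE at chr10:19077004-19079246, 62.7 kb from the start of Tnfaip3, which encodes A20, a deubiquitinase that restrains NF-kB. It rose from 17 and 5 to 462 and 460, or 4.97 ± 0.19, and this is the element whose AP-1 match was shown above. An intronic CRE of Slx4ip at chr2:136986501-136988945 rose from 17 and 11 to 538 and 523 (4.83 ± 0.20). An intergenic CRE 75.2 kb from Jak2, the kinase that signals for many cytokine receptors, was at 1 and 2 in UT and at 145 and 220 after LPS (4.83 ± 0.19, chr19:29175791-29177514). Its UT values correspond to very few reads, so no linear fold is given. The element 20.8 kb from Il1a at chr2:129330051-129331528, with the overlapping kappaB matches, rose from 17 and 11 to 457 and 568 (4.78 ± 0.18). An intronic CRE of Alpk2, which encodes an alpha kinase, rose from 7 and 4 to 254 and 306 (4.77 ± 0.17, chr18:65327372-65329712). Each of these elements was weak in both UT libraries and no UT value came near an LPS value.

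The largest losses were at promoters of genes with varied functions and at distal elements with a clear signal in UT cells. The promoter of Nxpe5 at chr5:138228941-138230533 fell from 366 and 375 to 33 and 48, a log2 difference of -3.06 ± 0.22 (adjusted p = 4.6e-14). Asgr2, a subunit of the asialoglycoprotein receptor, fell from 254 and 215 to 18 and 36 (-2.96 ± 0.31, chr11:70091377-70093013). Rgs14, a regulator of G protein signaling, fell from 287 and 259 to 33 and 31 (-2.91 ± 0.19, chr13:55368938-55370735). Every UT value at these promoters exceeded the LPS values by a wide margin. Padi2, a peptidylarginine deiminase, fell from 189 and 175 to 25 and 22 (-2.71 ± 0.25). Ntpcr, a nucleoside triphosphatase, fell from 142 and 132 to 23 and 10 (-2.79 ± 0.33).

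Among distal losses the first was an intronic CRE of Csad, the gene of a taurine-synthesis enzyme, at chr15:102191747-102194007, which fell from 420 and 407 to 13 and 40 (-3.88 ± 0.34, adjusted p = 6.5e-12). An intergenic CRE 26.6 kb from Man1c1, a Golgi mannosidase, fell from 375 or above in both UT libraries to 23 and 25 (-3.75 ± 0.24), and one 49.0 kb from Nlrp1b, an inflammasome sensor, from 208 and 172 to 10 and 10 (-3.69 ± 0.33). These 3 were reduced to a small part of their UT value in both LPS libraries. The intronic element of Zfyve28, with the C/EBP match shown above, fell from 418 and 459 to 30 and 33 (-3.60 ± 0.28, chr5:34237865-34239463). An intronic CRE of Rhobtb1 fell from 175 and 190 to 10 and 13 (-3.51 ± 0.30). The intronic element of Rere, a nuclear coregulator gene, with the PU.1 match, fell from 219 and 218 to 13 and 18 (-3.46 ± 0.21, chr4:150565427-150567265). Groups that do not overlap were a condition for naming these distal losses.

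**Figure D3:**
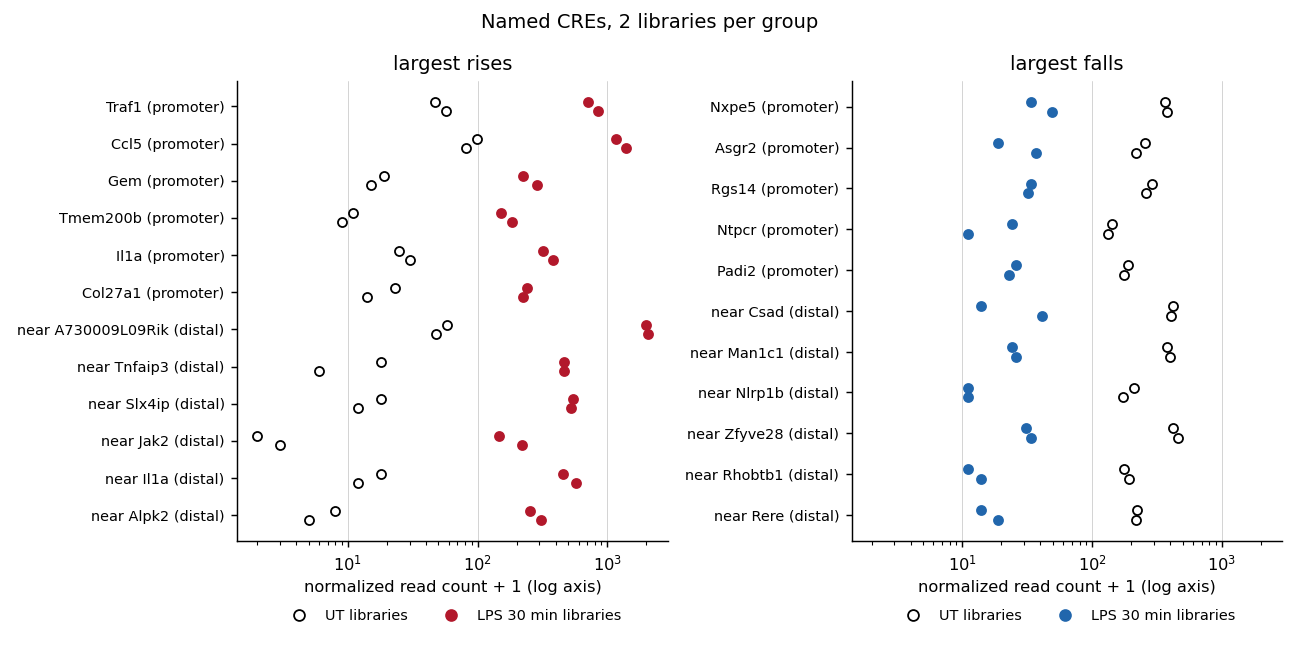
Normalized read count + 1 (log axis) of each UT library (open circles) and each LPS 30 min library (filled circles) at CREs with the largest rises (left) and the largest falls (right), promoters above and distal CREs below. In each CRE shown the pair of LPS libraries lies on 1 side of the pair of UT libraries, which was a condition for choosing it.

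Genes of the pathway were then followed through 10 lists, some of which share genes such as Rel, Tnip1, Traf6 and Cd14. Promoter CREs of NF-kB subunits and feedback regulators had the largest share of gains among the lists and no loss. Of 25 such genes, 15 had a promoter called higher and none lower. Of their 29 promoter CREs, 18 (62.1%) were called higher and none lower, against 6.48% and 8.97% of all promoter CREs. The median log2 difference was 1.19 against -0.04 over all promoters. Tnip1, which encodes a partner of A20, rose from 211 and 200 to 1267 and 1358 (2.65 ± 0.10), and the CRE over a further start of the gene rose from 376 and 381 to 1168 and 1277 (1.68 ± 0.09). Nfkbib, which encodes the inhibitor IkB beta and shares its promoter CRE with Sirt2, rose from 209 and 215 to 1170 and 1204 (2.46 ± 0.10). Another promoter CRE of Traf1 rose from 280 and 290 to 1330 and 1484 (2.28 ± 0.09), and both promoter CREs of Tnfaip3 were called higher, with log2 differences of 2.15 and 2.18. The subunit genes Nfkb1, Nfkb2, Relb and Rel were called higher with differences of 1.69, 1.67, 1.96 and 1.31. Rela was not called at 0.94. Nfkbia, the gene of the classical inhibitor IkB alpha, was at 758 and 816 in UT and at 1084 and 962 after LPS, a difference of 0.37 that was not called. The Nfkbia CRE spans 8521 bp and a called CRE of Tnfaip3 16165 bp, and each value is a sum over that width.

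Cytokine and chemokine promoters had many gains and no loss. Of 24 cytokine genes with a tested promoter CRE, 13 were called higher and none lower (median log2 difference 1.02). Of their 24 promoter CREs, 54.2% were called higher and none lower, against 6.48% and 8.97% of all promoter CREs. Ifnb1, the gene of interferon beta, rose from 31 and 30 to 223 and 273 (2.83 ± 0.17, chr4:88522030-88524302). Il1b, encoding interleukin 1 beta, rose from 135 and 102 to 698 and 913 (2.71 ± 0.13). Il12b, which encodes a chain shared by interleukins 12 and 23, rose from 12 and 12 to 86 and 115 (2.62 ± 0.23). In all of them the lower LPS library exceeded the higher UT library several times over, where the call nearly fixes that the groups do not overlap. Tnf, which encodes the tumor necrosis factor, started from 602 and 601 and stood at 944 and 1091, a difference of 0.75 that did not reach the call. The Tnf CRE spans 8852 bp and the called Il1b CRE 9717 bp, and each value is a sum over that width. Il10, an anti-inflammatory cytokine, stood at 366 and 377 in UT and 368 and 343 after LPS.

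Of 16 chemokine-related genes with a tested promoter CRE, 7 were called higher and none lower (median 0.98). Of their 16 promoter CREs, 43.75% were called higher and none lower, against 6.48% and 8.97% of all promoter CREs. Cxcl10, which attracts T cells and is known as both an NF-kB and an interferon target, rose from 60 and 56 to 645 and 691 (3.42 ± 0.12, chr5:92344435-92350626), and its window carries the kappaB, ISRE and AP-1 matches printed above. Cxcl1, a neutrophil attractant, rose from 23 and 20 to 165 and 147 (2.60 ± 0.25), and its paralog Cxcl2 rose from 97 and 88 to 498 and 481 (2.34). Ccrl2, an atypical chemokine receptor, rose from 265 and 298 to 1325 and 1605 (2.35 ± 0.10). Ccl3 and Ccl4, chemokines that attract monocytes, were not called, with differences of 0.41 and 0.91.

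Genes that damp signaling had more promoters called higher than lower. Among 28 phosphatases, RNA decay factors and other signal inhibitors, 13 were called higher and 1 lower (median 0.92). Of their 31 promoter CREs, 48.4% were called higher and 3.23% lower, against 6.48% and 8.97% of all promoter CREs. Dusp2, a nuclear MAP kinase phosphatase, rose from 100 and 93 to 904 and 1037 (3.26 ± 0.11, chr2:127332538-127336956), and Dusp8, a phosphatase of JNK and p38, from 27 and 30 to 234 and 244 (2.87 ± 0.22). The strongest change among the 3 tested promoter CREs of Pde4b, a phosphodiesterase of cAMP, was a CRE that rose from 28 and 25 to 190 and 196 (2.65 ± 0.16), and Zc3h12c, a member of the Regnase RNase family, rose from 95 and 108 to 376 and 436 (1.95 ± 0.17). Both LPS libraries were above both UT libraries at each of them, which the call nearly fixes. Zfp36l2, an RNA decay factor, was the exception on this list and fell from 562 and 633 to 165 and 169 (-1.81). Dusp1, a widely studied early phosphatase gene, was not called at either promoter CRE, with 1027 and 1046 in UT and 1607 and 1799 after LPS at the stronger of its promoter CREs (0.71).

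Immediate early genes were mixed. Of 30, 9 had a promoter called higher and 1 lower (median 0.60). Of their 34 promoter CREs, 29.4% were called higher and 2.94% lower, against 6.48% and 8.97% of all promoter CREs. Maff, encoding a small Maf factor, rose from 95 and 82 to 772 and 802 (3.09 ± 0.15, chr15:79345850-79349091), and the window over 1 of its starts carries the cAMP response element shown above. Nr4a1, a nuclear receptor gene, rose from 76 and 75 to 315 and 427 (2.21 ± 0.19). Egr1, a zinc finger factor gene, rose from 106 and 89 to 330 and 373 (1.80 ± 0.22), and its relative Egr2 from 211 and 219 to 754 and 759 (1.79 ± 0.13). In the 4 genes the groups did not overlap, which the call nearly fixes. The AP-1 genes Fos and Jun were not called. Fos stood at 580 and 638 in UT and 470 and 478 after LPS (-0.36), and Jun at 1176 and 1280 in UT and 1044 and 1154 after LPS (-0.16). Klf2, a factor known to restrain macrophage activation, fell from 233 and 229 to 86 and 91 (-1.34).

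Among 29 genes of LPS sensing with a tested promoter CRE, 7 were called higher and 1 lower (median 0.55). Of their 33 tested promoter CREs, 24.2% were called higher and 3.03% lower, against 6.48% and 8.97% of all promoter CREs. Ikbkb, encoding the kinase IKK beta, rose from 146 and 141 to 427 and 499 (1.65 ± 0.13), and Ticam1, encoding the adaptor TRIF, from 178 and 160 to 556 and 466 (1.56 ± 0.14). Tlr4, the receptor gene itself, was at 867 and 853 in UT and 475 and 541 after LPS, a difference of -0.76 that was not called, and its partner genes Cd14 and Ly96 were at 0.94 and -0.26. Tab1, an activator of the kinase TAK1, fell from 459 and 499 to 190 and 195 (-1.29).

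Of 31 interferon-stimulated genes with a tested promoter CRE, 5 were called higher and 1 lower, and the median log2 difference was -0.05. Over their 32 promoter CREs, 15.6% were called higher against 6.48% of all promoter CREs, and 3.13% lower against 8.97%. Ifi205, a DNA-sensor family gene, rose from 25 and 16 to 124 and 151 (2.50 ± 0.18), and the guanylate-binding protein genes Gbp5 and Gbp3 rose from 91 and 116 to 295 and 373 (1.64 ± 0.14) and from 239 and 211 to 548 and 598 (1.33 ± 0.11). Ifit2, an antiviral gene, fell from 92 and 77 to 36 and 27 (-1.30 ± 0.19). Mx1, which encodes an antiviral GTPase, and Irf7, which encodes a transcription factor of the interferon response, were not called, with differences of -0.90 and -0.23.

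Genes that define the resting macrophage had the largest share of losses among the lists. Of 39, 16 had a promoter called lower and 1 higher, with a median of -0.40, and of their 43 promoter CREs 17 were called lower against 8.97% of all promoters. Trem2, a lipid receptor of macrophages, fell from 1072 and 1061 to 147 and 208 (-2.57 ± 0.16, chr17:48345566-48348320). Mertk, a receptor for dying cells, fell from 218 and 234 to 53 and 33 (-2.30 ± 0.23), and the integrin gene Itgam from 666 and 606 to 124 and 144 (-2.21 ± 0.15). Maf, a factor of tissue macrophages, fell from 651 and 643 to 175 and 156 (-1.94 ± 0.15), and Cebpa, a myeloid lineage factor, from 358 and 388 to 89 and 105 (-1.89). In all 5 the UT libraries were above the LPS libraries with a gap larger than the range within either group. That the groups do not overlap is nearly fixed by the call. The lineage factor Spi1, which encodes PU.1, and the receptor gene Csf1r were not called, with differences of 0.58 and -0.17, and Mitf was called higher at a promoter CRE that rose from 31 and 26 to 89 and 105 (1.61). Of the 10 macrophage markers used to check the cell type, which this list also holds, 4 were called lower, namely Itgam, Fcgr1, Mertk and Laptm5.

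Of 29 other receptors with a tested promoter CRE, 2 were called higher and 3 lower (median -0.10). These are 6.90% and 10.3% of their promoter CREs, close to the 6.48% and 8.97% of all promoter CREs. Tlr2, the lipopeptide receptor, rose from 720 and 647 to 2189 and 2205 (1.68 ± 0.09), and the formyl peptide receptor CRE shared by Fpr2 and Fpr3 rose from 34 and 29 to 102 and 90 (1.47 ± 0.16). P2rx7, the ATP-gated channel, fell from 384 and 353 to 74 and 82 (-2.17 ± 0.18), and Tlr8, an RNA sensor, fell from 186 and 185 to 63 and 75 (-1.37 ± 0.18). The third loss was the DNA sensor Tlr9 (-1.25). Of 20 housekeeping genes, 1 was called higher and none lower (median -0.11). The gain is 5% of their promoter CREs, near the 6.48% of all promoter CREs, and 8.97% of all were called lower. It was at Rplp0, a ribosomal protein gene, which rose from 164 and 147 to 335 and 370 (1.16 ± 0.18).

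**Figure D4:**
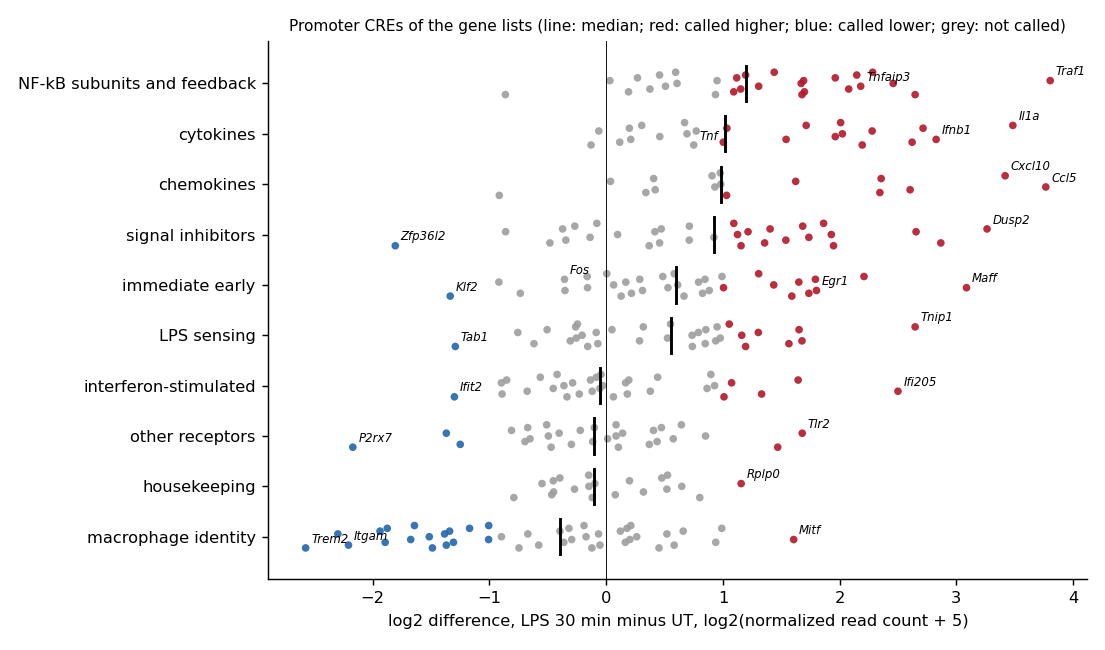
Log2 difference, LPS 30 min minus UT, of log2(normalized read count + 5) for each tested promoter CRE of 10 gene lists, with the median of each list as a black line, called gains in red, called losses in blue and CREs not called in grey. The medians run from 1.19 for NF-kB subunits and feedback genes to -0.40 for macrophage identity genes.

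Distal CREs within 100 kb of these genes gave a similar order of lists. Among all distal CREs within 100 kb of a coding start, 18.2% were called higher and 14.5% lower. Near NF-kB and feedback genes, gains made up 56.2% of 178 tested elements and losses 4.49%. Near cytokine genes 55.7% of 149 were called higher, near chemokine genes 53.0% of 66, and no CRE near either list was called lower. The shares of gains were 38.3% of 243 near signal inhibitors, 37.9% of 145 near LPS sensing genes and 25.5% of 212 near immediate early genes, with losses of 14.4%, 6.21% and 11.3%. Near interferon-stimulated genes 16.7% of 78 were called higher and 2.56% lower, so gains there were near the background. Macrophage identity genes had 14.6% of 308 called higher and 23.1% lower, and other receptors 20.4% of 206 higher and 17.5% lower. Distal CREs near 1 gene lie in the same neighborhood and are not independent of each other.

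Some genes had many distal gains or losses, and those named here were chosen after their counts were seen. Of 10235 genes with a tested distal CRE within 100 kb, 3155 had at least 1 gain, 2907 at least 1 loss and 739 both. At Tnfaip3, 23 of 25 distal CREs were called higher, with log2 differences from 0.18 to 4.97. Lpp, which encodes a focal adhesion protein, had 21 gains among 28 CREs although its own promoter was not called (-0.45). Nfkbiz, which encodes the nuclear NF-kB cofactor IkB zeta, had 18 among 20, and Cd47, the gene of the antiphagocytic signal of cells, had 17 among 27 with a promoter difference of 0.31 that was not called. On the side of losses, Zfp36l2 had 22 among 27 distal CREs called lower, beside its promoter. Tbxas1, encoding thromboxane synthase, had 13 among 18, and Map3k14, encoding the NIK kinase of noncanonical NF-kB signaling, had 12 among 12 with no call at its promoter (-0.54).

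The kappaB motif had a larger share among distal gains than among all distal CREs, and a smaller share among losses. In the central 200 bases the motif was found in 14.9% of distal gains, 2.54% of distal losses and 6.74% of all tested distal CREs. AP-1 was found in 27.7%, 10.6% and 21.1%, and the cAMP response element in 0.74%, 0.12% and 0.43% of the same sets. PU.1 showed the opposite order, in 6.78% of gains, 12.5% of losses and 9.44% of all. The C/EBP motif (12.1%, 13.0% and 12.2%) and ISRE (3.95%, 4.26% and 4.28%) were spread nearly evenly, and the E-box was found in 2.90%, 4.05% and 3.67%. EGR and the CArG box of serum response factor were rare at distal CREs, at 0.24% and 1.47% of gains. At promoters, kappaB was found in 12.3% of gains, 5.32% of losses and 7.34% of all, AP-1 in 7.79%, 4.80% and 3.92%, and the cAMP response element in 3.61%, 0.21% and 1.85%. Median GC content was 46.5% in distal gains, 48.0% in distal losses and 47.5% in all distal CREs, and at promoters 56.5%, 57.5% and 62.5%. These shares are descriptions without a test, and base composition was not matched between the sets.

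The level reached at 30 min was followed through the later libraries, 2 each at 1, 2 and 4 h of LPS. The median level of the gains was above its UT level at each of these times, and that of the losses was below it. Distal gains had a median level of 17 in UT, 77.5 at 30 min, 83.5 at 1 h, 73.3 at 2 h and 70 at 4 h, and promoter gains 108, 301.5, 263.5, 225.5 and 198. Distal losses had medians of 134, 42, 42.5, 41.5 and 53, and promoter losses 237.5, 84.5, 113.5, 100 and 122. The UT and 30 min medians are set by the calls themselves. The comparison of 1 h with 4 h uses neither the UT nor the 30 min libraries, though its spread comes from the same fit. Of the 8255 gains, 17.6% were called higher at 1 h than at 4 h and 6.57% higher at 4 h than at 1 h, against 6.02% and 8.21% of all CREs tested. Of the 6659 losses, 2.28% were called higher at 1 h and 13.8% higher at 4 h. Directly against 30 min, 3.92% of all tested CREs were called higher at 30 min and 6.14% lower than at 1 h, 12.4% and 13.1% than at 2 h, and 10.5% and 14.0% than at 4 h. Without LPS 30 min replicate 2, the number called higher at 30 min than at 1 h went from 1988 to 1299. These 3 comparisons share the 30 min libraries with the comparison to UT.

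Some early gains were back near their UT level by 4 h. An exonic CRE of Prr7, a proline-rich membrane protein gene, was at 19 and 30 in UT, 264 and 303 at 30 min, 112 and 114 at 1 h, 8 and 27 at 2 h and 10 and 25 at 4 h. Neither library exceeded the higher UT library at 2 h or 4 h, and its difference between 30 min and 4 h was 3.76 on the log2 scale. A CRE in an intron of Msra, nearest in coding starts to Prss52, went from 24 and 19 to 127 and 159 and was at 10 and 20 by 1 h. An intergenic CRE 61.8 kb from Ado, a thiol dioxygenase gene, went from 28 and 16 to 279 and 288 and was at 63 and 48 at 2 h and at 16 and 18 at 4 h. Among the promoters already named, Maff fell back from 772 and 802 at 30 min to 355 and 405 at 1 h and 117 and 123 at 4 h. Dusp8 was at 41 in both libraries at 2 h and at 59 and 58 at 4 h, above its UT values of 27 and 30. Egr1 was back at 91 and 100 by 1 h. Cxcl1 held 146 and 142 at 1 h but only 16 and 31 at 4 h.

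Other changes at 30 min were the start of longer ones. Ccl5 rose on to 2418 and 2324 at 1 h and 3373 and 3576 at 2 h, and the element near Jak2 rose to 584 and 435 at 4 h. The shared Fpr2 and Fpr3 CRE, at 102 and 90 at 30 min, reached 935 and 843 at 4 h. These 3 were therefore far from their later level at the first time point. A few CREs fell first and rose afterward. A distal CRE of Slfn1, a schlafen family gene, was at 46 and 48 in UT, 8 and 16 at 30 min and 932 and 698 at 4 h, and 29% of the 51-base words in it have another copy elsewhere in mm10, so its reads may be shared with related genes. The promoter of Slfn1 went from 158 and 129 to 48 and 75 at 30 min and to 1722 and 1516 at 4 h, and its call at 30 min was lost without LPS library 1, with a difference of -0.89. An intronic CRE of Rmi2, a gene of the DNA-unwinding BLM complex, went from 56 and 39 to 25 and 7 and reached 706 and 659 at 4 h. Its call at 30 min was lost without LPS library 2, at -0.79. Ifit2 followed the same course, from 92 and 77 through 36 and 27 to 346 and 359. In the inhibitor libraries described below, these falls were smaller. They were -0.30 and -0.36 at the distal CRE and the promoter of Slfn1, -0.54 at Rmi2 and -0.64 at Ifit2. The difference was above 0 in 24, 15, 12 and 10 of 58 compounds, in the same order.

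**Figure D5:**
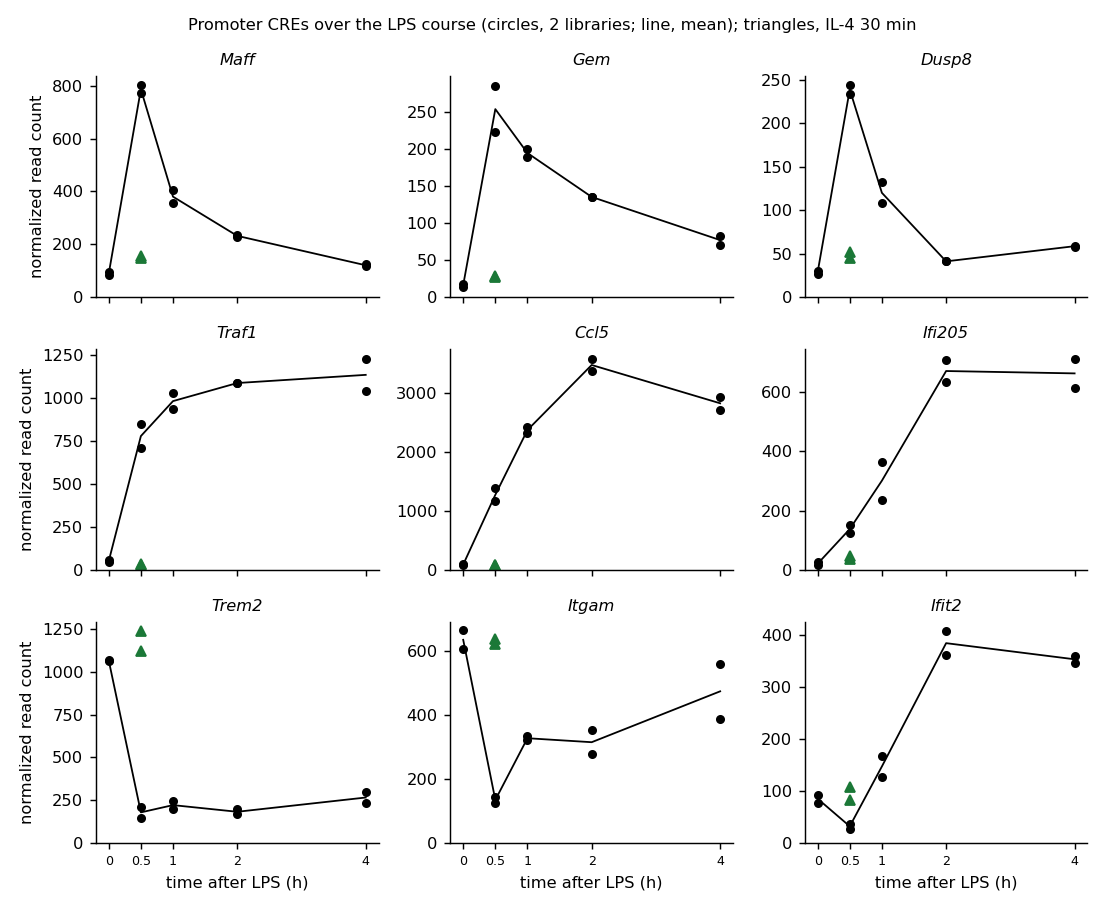
Normalized read count (vertical, linear from 0) of 9 promoter CREs against time after LPS in hours, with 1 circle per library, a line through the means, UT drawn at 0 h and green triangles for the 2 IL-4 libraries at 30 min. Maff, Gem and Dusp8 peak at 30 min, Traf1, Ccl5 and Ifi205 stand higher at 2 h than at 30 min, Trem2 stays low from 30 min on, Itgam drops to 124 and 144 and then stands higher at later times, and Ifit2 dips to 36 and 27 before reaching 346 and 359 at 4 h.

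Interleukin 4 (IL-4), which drives macrophages through STAT6 toward alternative activation, gave a reference for what 30 min of a different stimulus at the same 10 ng/mL does. In a direct comparison that leaves out the UT libraries but shares the LPS libraries, 6248 CREs were higher with LPS (12.4% of 50587 tested) and 8632 were lower (17.1%). At the distal gains the median IL-4 level was 27.5 beside 77.5 with LPS, and at the distal losses it was 115 beside 42. Traf1 was at 34 and 28 with IL-4, Dusp2 at 86 and 71, Cxcl10 at 87 and 75 and Trem2 at 1240 and 1122, all on the side of the UT values. Other named promoters also stood above UT with IL-4. Egr2 reached 737 and 743 with IL-4 and 754 and 759 with LPS, and the difference between the stimuli was 0.03 ± 0.11 (SE) on the log2 scale. Nfkb1 was at 734 and 769 with IL-4, against 329 and 337 in UT and 1097 and 1076 with LPS. Ccl4 was at 735 and 741 with IL-4, against 425 and 419 in UT and 757 and 836 with LPS. Nfkbia was at 1098 and 1084 with IL-4, against 758 and 816 in UT. The Rmi2 element was at 607 and 590 with IL-4 when LPS had lowered it. Il1a was in between, at 121 and 103 with IL-4 against 317 and 378 with LPS.

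The same contrast was read in libraries that the DMSO comparison did not use, the 73 UT and 62 LPS 30 min libraries of cells given 1 of 58 kinase inhibitors before stimulation. The early gains and losses had the same direction there with few exceptions. Of the 8254 gains that could be tested, 8250 had a difference above 0, with a median of 0.92, and 91.4% were called higher at an adjusted p under 0.01 and a log2 difference over 0.5, where 20.9% of all 59155 CREs tested were called higher. Of the 6659 losses, 21 had a difference above 0, the median was -1.02 and 90.8% were called lower at the same limits, against 18.8% of all CREs. Of the CREs not called in DMSO, 49.7% had a difference above 0. At a log2 difference over 1, the limit used in DMSO, 42.9% of the gains were called higher and 52.7% of the losses lower, against 6.08% and 6.37% of all CREs. Many of the inhibitors target kinases that carry the signal, and the gains and losses were selected by their size in DMSO. The size of a difference in these cells is therefore not read as that of untreated macrophages, and its cause was not tested.

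Per compound, each with its own UT library, the median difference over the gains was above 0 in 56 of 58. The exceptions were PH797804 (-0.08) and Afatinib (-0.02), where the CREs not called in DMSO also lay low, at -0.83 and -0.52. Relative to the CREs not called, gains were higher in 58 of 58 compounds, by 0.50 with Afatinib to 1.49 with GSK2110183, and losses were lower in 58 of 58. Single promoters followed, with Traf1, Ccl5, Maff, Dusp2 and Cxcl10 higher in 58 of 58 compounds and Trem2 and Itgam in none. Most compounds have 1 library per condition, and no test was made for single compounds.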

How the data were processed

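H3K27ac ChIP-seq was measured in BMDMs. The authors removed adapters, trimmed reads to 51 bp, mapped them to mm10 with ShortStack, counted reads within 700 bp of ATAC-seq summits with GenomicRanges and GenomicAlignments, and scaled libraries with GeneralNormalizer from invariant peaks. The submitters' processing notes also name Bowtie and SAMtools, with no version. The deposited values are normalized read counts, rounded to integers by the authors, and were analysed as a score, without a count model. The listed CREs are 1406 to 61924 bp wide, and the rule that merged summits into them is not stated in the sources read. The value of 1 read, and from it the depth of each library, was estimated from the spacing of values up to 300, and in 36 of 42 simulated libraries the spacing was recovered within 0.5 percent. Another 411 columns of values in the table belong to other conditions and were not used here.

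Groups came from the titles and treatment labels. The tests used limma 3.58.1 (R 4.3.3) with a mean trend on log2(value + 5), which understates changes of low CREs, over the 10 DMSO libraries of the LPS course (5 residual degrees of freedom). CREs with a mean of at least 10 were tested, and 8493 were not. The self-test of this fit used data simulated with known changes. The comparison with IL-4 used the 18 DMSO libraries, and the inhibitor comparison had compound as a factor. Starts and gene locations came from GENCODE vM21 on GRCm38, and 39 of 45 promoter genes looked up by symbol matched a RefSeq window. A called CRE was named if it was among the 6 largest rises or falls of promoter or distal CREs, with groups that do not overlap and at most 20% repeated 51-base words and 1 CRE per gene, or among the 4 largest called promoter changes of a list, or among the 3 largest differences between 30 min and 4 h in each direction. Other list members, and the genes with many distal calls, were named after their values were seen. A few items that these rules name are not reported here. Members and lists were chosen with earlier results of these data known. Alternatives changed the pseudocount, filter, scaling, call limit, libraries fitted, replicate block, list distance and motif window, and the comparison of 1 h with 4 h was added after the data were seen.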

Additional observations from a re-analysis of the deposited data

How the results depend on the processing

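Every named CRE kept its direction under the alternatives tried for it, and 879 of 882 values for 63 CREs stayed on their side of the threshold. The exceptions were the Rmi2 element, at -0.94 with a pseudocount of 20 and -0.79 without LPS 30 min replicate 2, and the Slfn1 promoter, at -0.89 without LPS 30 min replicate 1. A pseudocount of 20 gave 5415 gains in all and 4872 at distal CREs, where weak elements weigh most, by the construction of that scale. A limit of 0.5 on the log2 difference gave 1800 promoter gains and 2071 promoter losses. Leaving out 1 library at a time gave 6799 to 8005 gains and 5361 to 7027 losses, 651 to 727 promoter gains and 872 to 1108 promoter losses, 6116 to 7278 distal gains and 4405 to 5919 distal losses. The comparison of 30 min with 1 h gave 1299 to 2147 CREs higher at 30 min, the lowest without LPS 30 min replicate 2, and the cause was not tested. Quantile normalization gave 7271 gains and 6810 losses. Restricting lists to distal CREs within 20 kb moved the shares to 63.89% gains near cytokine genes, 48.05% gains near LPS sensing genes, 9.028% gains near macrophage identity genes and 1.087% losses near NF-kB genes. In the central 400 bases the share of gains over that of losses was 3.742 for kappaB (5.859 in 200 bases) and 2.184 for AP-1 (2.608), where a wider window holds more matches by its length.

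Libraries with the same number did not deviate together: over 10 pairs of LPS course groups the correlation of deviations ran from -0.038 to 0.047. Read sampling lowers such correlations, so they cannot decide whether equal numbers are pairs. The numbers were not taken as pairs, and a fit with the replicate block gave 8256 gains and 6648 losses.

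With 2 libraries a group, p-values lean on variances shared across CREs and times. LPS library 1 holds the fewest estimated reads, and values near its step of 2.54 rest on single reads. Nearest-gene names do not show targets.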

Other observations

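Gains were spread unevenly over the chromosomes. They made up 21.3% of tested CREs on chromosome 16, 19.6% on chromosome 10 and 18.4% on chromosome 3, and 13.3% on chromosome 7 and 13.5% on chromosome 19. Losses ranged among the autosomes from 11.5% on chromosome 3 to 15.4% on chromosome 7, and were 16.7% on the X chromosome. No test was made of these shares.

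Only 4 of the gains had a difference below 0 in the inhibitor libraries. They were distal CREs near Tns3, Rin3, Pmepa1 and Pdia4, and the last was at 0 and 0 in UT and at 168 and 18 after LPS, so that a single library carried most of it. It is 1 of 10 CREs listed at 0 in both UT libraries and called higher. Among the 21 losses with a difference above 0 in the inhibitor libraries was 1 promoter, that of Rab38, a small GTPase gene, at 32 and 32 in UT and 10 and 16 after LPS. The others were distal, among them an intergenic CRE nearest to Rftn1, which was at 20 and 25 in UT, 5 and 7 at 30 min and 186 and 188 at 4 h. Rftn1 encodes a lipid raft protein.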
